A study of Mus musculus with 3 samples.

Results

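The 10 CC chemokine genes *Ccl2*, *Ccl3*, *Ccl4*, *Ccl5*, *Ccl6*, *Ccl7*, *Ccl8*, *Ccl9*, *Ccl12* and *Ccl22* were followed in mouse macrophages grown from bone marrow (BMDMs) and given *Borrelia burgdorferi* lipoproteins (*Bb*LP). They were taken by gene symbol, 1 row each, from the 32285 genes counted in every library. The cells came from female C3H/HeN mice of 6 to 8 weeks, were cultured for 8 days in medium with L929-conditioned medium, and were sequenced as single cells. There were 3 libraries, 1 per condition. Ctrl, labelled UI, held untreated cells given PBS. LP1 held cells given purified *Bb*LP at 1 µg/mL for 1 hour, and LP4 held cells given the same dose for 4 hours. According to the methods the control cells were collected at 4 hours, so that LP1 had no control of its own time. Each library pooled 3 wells, so no condition had a replicate. No test between conditions was therefore made, and every interval given is a 95% interval that covers counting error only.

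CC chemokines are small secreted proteins with a pair of adjacent cysteines that draw leukocytes along a gradient through G protein coupled receptors. *Ccl2*, *Ccl7*, *Ccl8* and *Ccl12* encode the monocyte chemoattractant proteins, of which CCL2, CCL7 and CCL12 bind CCR2 on monocytes. *Ccl3* and *Ccl4* encode macrophage inflammatory proteins that draw monocytes and T cells, and *Ccl5* (RANTES) encodes a further attractant of these cells. *Ccl6* and *Ccl9* encode ligands of CCR1 made by mouse myeloid cells, and *Ccl22* encodes a CCR4 ligand typical of dendritic cells. Macrophages transcribe many of these genes after Toll-like receptor ligands such as bacterial lipoproteins reach them.

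Ctrl had 6071 kept cells, LP1 had 5065 and LP4 had 4670, and the summed unique molecular identifiers (UMIs, each standing for 1 captured transcript) were 35688939, 52475723 and 61402275. The median cell held 5133, 9343 and 11784 UMIs. Levels are UMIs per 1000000 UMIs of the library (CPM). Since the 3′ assay counts 1 end per transcript, CPM does not grow with transcript length. Barcode sequences shared by kept cells numbered 9 for Ctrl and LP1, 7 for Ctrl and LP4 and 3 for LP1 and LP4. All 10 macrophage markers were detected, with a summed level of 10656 to 11811 CPM, against 458 to 713 CPM for 10 neutrophil markers, 237 to 253 CPM for 10 dendritic cell markers, 4.29 to 19.7 CPM for 6 stromal markers and at most 3.08 CPM for 6 lymphoid markers. The neutrophil, dendritic cell and stromal markers were all detected too. *Lyz2* alone gave 9209, 9684 and 8717 CPM of the macrophage sum in Ctrl, LP1 and LP4. Of the macrophage markers 10, 8 and 7 reached 50 CPM, against 3 neutrophil and 2 dendritic cell markers in each library.

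In the GENCODE vM21 annotation (GRCm38), 9 of the 10 genes lie on chromosome 11 in 2 neighbourhoods. The first holds *Ccl2* (chr11:82035571-82037453), *Ccl7* (chr11:82045712-82047525), *Ccl12* (chr11:82101845-82103400) and *Ccl8* (chr11:82115185-82116799), all on the plus strand. The second starts 1409 kb further on and holds *Ccl5* (chr11:83525778-83530518), *Ccl9* (chr11:83572919-83578636), *Ccl6* (chr11:83587882-83593087) and *Ccl3* (chr11:83647844-83649355) on the minus strand and *Ccl4* (chr11:83662584-83664683) on the plus strand. *Ccl22* lies alone at chr8:94745590-94751699, plus strand. No member overlaps another gene on its own strand. *Ccl3* and *Ccl4* are 13.2 kb apart and *Ccl2* and *Ccl7* 8.26 kb apart.

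RefSeq promoter windows (GRCm38.p6) were matched for 6 of the 10 genes: *Ccl3*, *Ccl6*, *Ccl8*, *Ccl9*, *Ccl12* and *Ccl22*. The 250 bases before the start are shown for *Ccl3* and *Ccl12*, which were higher at each step of the time course, and for *Ccl9* and *Ccl6*, whose levels moved by less than 1.5-fold between any libraries although they lie beside *Ccl3*. Capitals mark matches on either strand to the NF-kB consensus, to the core of the interferon-stimulated response element (GAAANNGAAA), to the AP-1 site (TGANTCA) or to the TATA box (TATAAA). The lines give chr11:83649379-83649628 (minus strand) for *Ccl3*, chr11:82101595-82101844 (plus) for *Ccl12*, chr11:83578637-83578886 (minus) for *Ccl9* and chr11:83593088-83593337 (minus) for *Ccl6*.
Ccl3: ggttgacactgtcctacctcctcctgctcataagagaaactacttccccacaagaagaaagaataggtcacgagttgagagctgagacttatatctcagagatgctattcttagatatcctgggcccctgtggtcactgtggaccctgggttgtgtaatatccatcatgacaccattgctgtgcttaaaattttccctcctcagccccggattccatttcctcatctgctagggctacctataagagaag
Ccl12: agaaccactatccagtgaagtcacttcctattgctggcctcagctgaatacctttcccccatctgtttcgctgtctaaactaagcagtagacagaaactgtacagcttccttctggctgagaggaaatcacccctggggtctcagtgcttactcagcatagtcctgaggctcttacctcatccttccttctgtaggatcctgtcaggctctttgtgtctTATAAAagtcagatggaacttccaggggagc
Ccl9: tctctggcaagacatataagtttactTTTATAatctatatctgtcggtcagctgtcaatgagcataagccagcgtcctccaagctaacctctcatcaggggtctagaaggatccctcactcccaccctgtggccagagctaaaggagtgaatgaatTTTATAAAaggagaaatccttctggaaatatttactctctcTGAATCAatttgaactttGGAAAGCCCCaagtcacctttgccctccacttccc
Ccl6: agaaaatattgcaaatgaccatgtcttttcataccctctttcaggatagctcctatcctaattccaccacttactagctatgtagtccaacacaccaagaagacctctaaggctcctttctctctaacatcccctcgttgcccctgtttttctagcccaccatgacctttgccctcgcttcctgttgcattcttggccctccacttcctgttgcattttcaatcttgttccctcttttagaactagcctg

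In these letters *Ccl12* holds a TATA box 31 to 26 bases before its start. *Ccl9* holds 1 NF-kB match 35 to 26 bases before the start, 1 AP-1 match and 3 TATA box matches, of which 2 overlap. The windows of *Ccl3* and *Ccl6* hold none of the 4 motifs, and neither does that of *Ccl22*, while *Ccl8* holds a TATA box at 32 to 27 bases. Over 32841 promoter windows of the same length, 3.90% hold the NF-kB consensus, 2.98% the response element core, 6.75% the AP-1 site and 12.4% the TATA box. The longest run of letters shared by any pair of the 6 windows is 13 bases, gccctccacttcc, in *Ccl6* and *Ccl9*. The members also differ at their 3′ ends. ATTTA, the core letters of AU-rich elements that shorten the life of many cytokine mRNAs, occurs 5 times in the 167 bases of the *Ccl12* 3′ untranslated region and 5 times in the 409 bases of that of *Ccl3*. It occurs 2 times in 302 bases for *Ccl4*, 2 times in 435 for *Ccl7* and 1 time in 275 for *Ccl2*, and it is not found in the 199 bases of *Ccl5* or the 165 bases of *Ccl8*. Per kilobase, these counts come to 29.9 for *Ccl12*, 12.2 for *Ccl3* and 6.62 for *Ccl4*, against a median of 1.20 over 21186 genes, of which 7.37% reach 5 per kilobase. Of the members with long 3′ ends, *Ccl6* holds 4.24 per kilobase, *Ccl9* 2.03 and *Ccl22* 1.10.

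Together the 10 genes made up 1086 CPM of the Ctrl library, 1581 CPM of LP1 and 4674 CPM of LP4, or 6.38, 16.4 and 61.5 UMIs in the mean cell. Relative to Ctrl the log2 ratio of this sum was 0.54 (0.52 to 0.56) at 1 hour and 2.11 (2.09 to 2.12) at 4 hours. The makeup of this sum differed between libraries too. *Ccl9* supplied 42.6%, 29.2% and 11.8% of the members' UMIs in the order of Ctrl, LP1 and LP4, whereas *Ccl4* supplied 10.5%, 18.3% and 54.0%. In LP1, 5 of the 10 members were at least 2-fold above Ctrl (*Ccl2*, *Ccl3*, *Ccl4*, *Ccl12* and *Ccl22*), beside 0.697% of the 7747 genes with at least 10 CPM in a library of the pair, and 0 members were 2-fold lower, beside 0.465%. At 1.5-fold *Ccl7* joined them (not in macrophage-like clusters alone), giving 6 of 10 beside 4.12% of all genes. In LP4, 6 of 10 were 2-fold above Ctrl, with *Ccl5* added, beside 10.6% of 8019 genes, and 0 were 2-fold below it, beside 9.91%, although *Ccl22* moved from the first count to the second without its top cells (5 higher and 1 lower). From LP1 to LP4, 4 of 10 were 2-fold higher (*Ccl3*, *Ccl4*, *Ccl5* and *Ccl12*) beside 8.75% of 7956 genes, and *Ccl22* was 2-fold lower, beside 7.55%. *Ccl12* and *Ccl22* lay under 10 CPM in Ctrl and LP1 and so outside the genes of the background there, which leaves 3 of 7 members 2-fold higher in LP1 than in Ctrl. In the pairs with LP4, 8 members had 10 CPM, of which 5 were 2-fold higher than in Ctrl and 4 than in LP1. *Ccl22* was not among these 8, and none of them was 2-fold lower in LP4. The lower *Ccl22* in LP4 than in LP1 was under 2-fold as a mean of cell shares (-0.66). The call of *Ccl22* in LP1 rested on 1 cell, as given with that gene, and *Ccl3* stood at the limit in LP1, with a ratio of 1.00 that came to 0.98 without the 5% of cells with most UMIs.

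**Figure D1:**
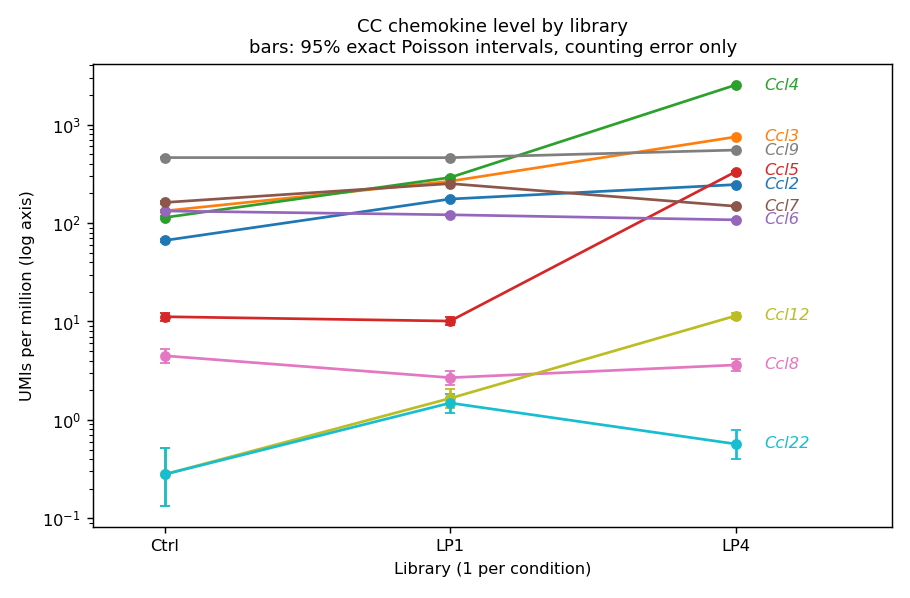
Level of each CC chemokine in the 3 libraries, in CPM on a log axis; points are libraries, lines join the values of 1 gene, and bars are exact Poisson intervals for counting error. *Ccl4* climbed from 114 to 2524 CPM, *Ccl5* left its low level only in LP4, and *Ccl9* and *Ccl6* stayed nearly level.

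**Figure D2:**
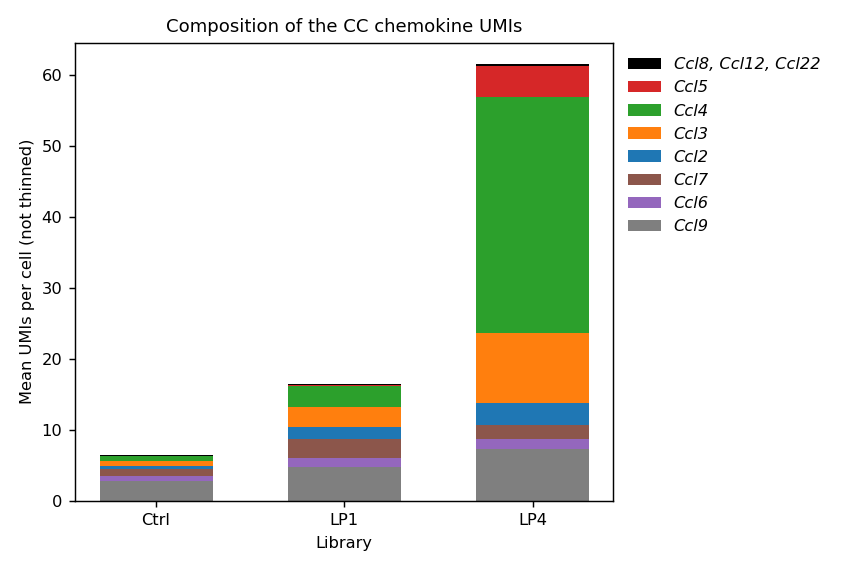
Mean UMIs per cell of each member, stacked by library (cells not thinned, so that depth differs between the bars). The bars reach 6.38, 16.4 and 61.5 UMIs, and *Ccl4* takes up most of the LP4 bar.

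An early and a late group were set by fixed limits: early for members at least 1.5-fold higher in LP1 than in Ctrl, and late for other members at least 2-fold higher in LP4 than in LP1. By these limits 6 members were early (*Ccl2*, *Ccl3*, *Ccl4*, *Ccl7*, *Ccl12* and *Ccl22*), 1 was late (*Ccl5*) and 3 were neither (*Ccl6*, *Ccl8* and *Ccl9*). Of all 7747 genes with 10 CPM, 4.12% met the early limit, but *Ccl12* and *Ccl22* lay under 10 CPM there. The share of all genes that were late by both limits was not computed. Without the first limit, 8.75% of 7956 genes were 2-fold higher in LP4 than in LP1. The early members did not share a later course. *Ccl3*, *Ccl4* and *Ccl12* went up further from LP1 to LP4, and *Ccl2* went up by less than 2-fold. *Ccl7* went down, to about its Ctrl level by CPM and to below it as a mean of cell shares. *Ccl22* went down by a log2 ratio of -1.38, on values that rest on a few cells.

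Among the monocyte chemoattractants, *Ccl2*, the main CCR2 ligand, stood at 66.5 CPM in Ctrl, 175 CPM in LP1 and 246 CPM in LP4. Its log2 ratio was 1.40 (1.33 to 1.46) for LP1 over Ctrl and 0.49 (0.45 to 0.52) for LP4 over LP1, so that most of its difference from Ctrl was already present at 1 hour. *Ccl7*, its neighbour and a CCR2 ligand as well, stood at 162, 251 and 148 CPM. It was higher in LP1 than in Ctrl by a log2 ratio of 0.64 (0.59 to 0.68), which in macrophage-like clusters alone came to 0.58, just under the 1.5-fold limit of the early group. It was lower in LP4 than in LP1 by -0.76 (-0.80 to -0.72). LP4 and Ctrl differed by -0.13 (-0.17 to -0.08) in *Ccl7*. This sign turned under scaling by TMM (0.04) or by the median of ratios (0.08), scalings that move every LP4 over Ctrl ratio by 0.17 and 0.21. Other alternatives put LP4 further below Ctrl. The ratio came to -0.47 as a mean of cell shares and -0.29 in macrophage-like clusters alone. Without the 5% of cells with most UMIs it was -0.19.

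*Ccl12*, a further CCR2 ligand found in mice, was the rarest member to go up throughout, from 10 UMIs of Ctrl (0.280 CPM) over 87 of LP1 (1.66 CPM) to 701 of LP4 (11.4 CPM). The log2 ratio to Ctrl was 2.56 (1.62 to 3.67) in LP1 and 5.35 (4.46 to 6.42) in LP4. These intervals are wide because of the 10 UMIs in Ctrl, each in a different cell. *Ccl8*, the remaining gene of this neighbourhood, stayed rare, with 160, 141 and 222 UMIs (4.48, 2.69 and 3.62 CPM), and was lower in LP1 than in Ctrl by -0.74 (-1.08 to -0.40). Within this neighbourhood of 4 genes, then, *Ccl2* and *Ccl12* were highest in LP4, *Ccl7* in LP1 and *Ccl8* in Ctrl. The sum of the 4 genes was 233, 431 and 409 CPM, of which *Ccl2* and *Ccl7* made up nearly all.

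The macrophage inflammatory proteins *Ccl3* and *Ccl4* showed the largest gain in UMIs. *Ccl3* stood at 133 CPM in Ctrl, 266 CPM in LP1 and 750 CPM in LP4, with a log2 ratio of 1.00 (0.95 to 1.05) for LP1 over Ctrl and a 2.82-fold higher level in LP4 than in LP1. *Ccl4* stood at 114, 290 and 2524 CPM, with ratios of 1.35 (1.30 to 1.40) and 3.12 (3.10 to 3.15). By level *Ccl4* held rank 1435 among all genes in Ctrl, rank 503 in LP1 and rank 24 in LP4. In Ctrl *Ccl3* was the higher of the pair, in LP1 *Ccl4* was slightly higher, and in LP4 *Ccl4* was far above *Ccl3*.

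*Ccl5*, the late member, stood at 11.2 CPM in Ctrl, 10.1 CPM in LP1 and 331 CPM in LP4. The log2 ratio of LP1 over Ctrl was -0.15 (-0.34 to 0.04), but it came to -0.65 in macrophage-like clusters alone and to -0.40 as a mean of cell shares. By cluster it ran from -1.12 in B to 3.51 in the dendritic cell-like F. The value of F rested on 133 UMIs in LP1, of which 1 cell held 118, and 9 in Ctrl. In B, 1 cell held 61 of the 267 Ctrl UMIs. Over all cells, LP4 was higher than LP1 by 5.04 (4.91 to 5.16), the largest ratio of any member for this step. The few *Ccl5* UMIs of the other libraries lay in few cells. The cell with most held 118 of the 530 UMIs in LP1 and 61 of the 399 in Ctrl. Of the 135 Ctrl cells with a UMI, 20 held 50% of the UMIs, as did 15 of 127 in LP1 and 303 of 1863 in LP4. Without the top cell of each library the LP4 over Ctrl ratio was 5.12, against 4.89 with it.

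*Ccl9* and *Ccl6*, the CCR1 ligands, changed least over all cells of the libraries. *Ccl9* stood at 462, 461 and 551 CPM and was the most abundant member in Ctrl and LP1. Its log2 ratio was -0.00 (-0.03 to 0.03) for LP1 over Ctrl, with a sign that turned under other scalings, and 0.25 (0.23 to 0.28) for LP4 over Ctrl. *Ccl6* stood at 133, 121 and 108 CPM, with ratios of -0.13 (-0.18 to -0.07) and -0.30 (-0.35 to -0.25) to Ctrl. The latter came to -0.13 with TMM scaling and -0.09 with the median of ratios. The summed level of *Ccl9* and *Ccl6* was 595, 583 and 659 CPM.

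*Ccl22*, the CCR4 ligand, gave 10, 78 and 35 UMIs (0.280, 1.49 and 0.570 CPM). A single dendritic cell-like cell held 60 of the 78 UMIs in LP1, and another held 29 of the 35 in LP4. With the top cell of every library left out, the log2 ratio to Ctrl was 0.81 in LP1, under 2-fold, against 2.41 with all cells, and -1.01 in LP4, against 1.02 with all cells. The values of *Ccl22* therefore describe a few cells and not the libraries.

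To compare the share of cells with a UMI between libraries of unequal depth, cells were thinned at random to 2000 UMIs each. The 122 cells of Ctrl, 13 of LP1 and 45 of LP4 with fewer UMIs were left out. A UMI of *Ccl4* was present in 17.2% (Ctrl), 26.0% (LP1) and 82.2% (LP4) of the thinned cells. *Ccl3* was found in 20.3%, 29.3% and 55.4%, and *Ccl5* in 1.29%, 1.17% and 25.1%. For *Ccl2* the shares were 11.9%, 22.2% and 21.6%, and the cells that held it carried 1.25, 1.68 and 2.05 UMIs on average, so that the CPM, but not the share, was higher in LP4 than in LP1. *Ccl7* was found in 19.4%, 21.6% and 12.0% of cells, *Ccl9* in 49.7%, 48.9% and 52.7%, and *Ccl6* in 17.9%, 16.5% and 15.0%. *Ccl12* reached 1.79% in LP4, from 0.101% and 0.237%, and neither *Ccl8* nor *Ccl22* reached 1% in any library. Without thinning, the shares of *Ccl4* were 27.2%, 42.7% and 93.1%.

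Neutrophil-like cells, in which *Ccl2*, *Ccl7* and *Ccl5* were nearly absent, gave a bound on free RNA of these genes. Ctrl held 32 of them, LP1 held 24 and LP4 held 28, with median depths of 2940, 5877 and 9262 UMIs before thinning. After thinning, which left 21, 20 and 28 of them, no neutrophil-like cell held *Ccl2* or *Ccl7* in any library, with upper limits of 16.1%, 16.8% and 12.3%. *Ccl5* was found in 0%, 0% and 3.57% of them, against 25.1% of all LP4 cells. The small number of these cells leaves the limits wide. The shares of *Ccl3*, *Ccl6*, *Ccl8*, *Ccl12* and *Ccl22* in every library lay under the upper limit of the same gene in these cells. For *Ccl3* these limits were 36.3%, 63.9% and 81.4%, and for *Ccl6* 36.3%, 31.7% and 18.3%. Neutrophil-like cells had more *Ccl3* than their library, with 535 against 266 CPM in LP1 and 2416 against 750 CPM in LP4. They therefore give no bound on its free RNA. For *Ccl8*, *Ccl12* and *Ccl22* the comparison could not have come out otherwise, since even 0 of 28 cells allow up to 12.3%. The shares of *Ccl5* in Ctrl and LP1, of *Ccl2* in Ctrl and of *Ccl7* in LP4 lay under their limits as well. By shares of thinned cells, all these cannot be set apart from background. Over all UMIs of the neutrophil-like cells, the upper limit was 35.3 CPM for *Ccl2* in Ctrl and 15.4 CPM for *Ccl7* in LP4. The library levels were higher, at 66.5 and 148 CPM. For *Ccl5* the limits of 35.3 CPM in Ctrl and 27.4 CPM in LP1 lay above the library levels of 11.2 and 10.1 CPM. For *Ccl6* they were 125, 146 and 98.0 CPM, against library levels of 133, 121 and 108 CPM. For *Ccl4* the limits of 35.3 CPM in Ctrl and 27.4 CPM in LP1 lay under the library levels of 114 and 290 CPM. In LP4 the neutrophil-like cells had 2754 CPM of *Ccl4* (2547 to 2972), against 2524 CPM in the library, and so give no bound by CPM. After thinning, 42.9% of them held *Ccl4*, with an upper limit of 62.8%, against 82.2% of all LP4 cells.

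**Figure D3:**
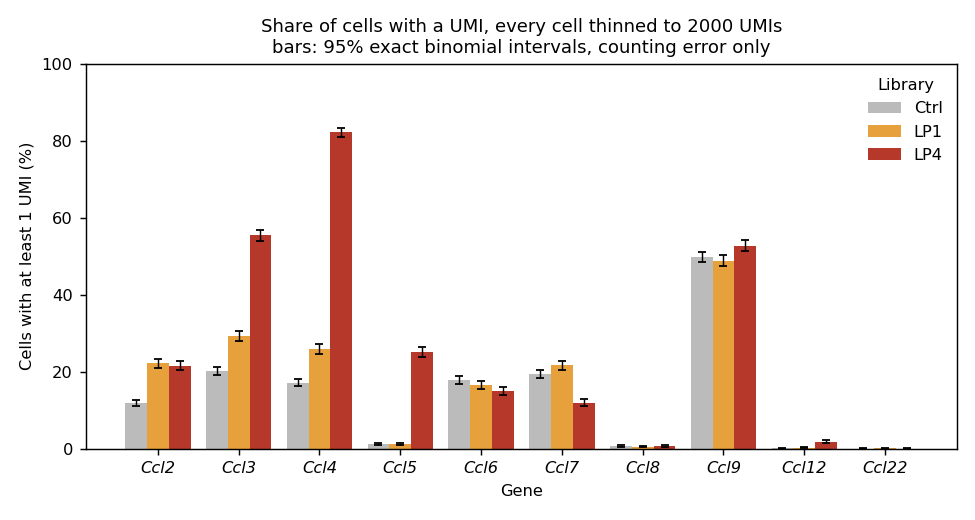
Share of cells with at least 1 UMI of each member after thinning every cell to 2000 UMIs, by library; bars show exact binomial intervals for counting error. *Ccl4* reaches 82.2% of LP4 cells, *Ccl2* is alike in LP1 and LP4, and *Ccl7* is lower in LP4 than in the other libraries.

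The number of different members in a thinned cell had a median of 1 in each of Ctrl and LP1 and of 3 in LP4. Cells with no member made up 28.5% of Ctrl, 24.2% of LP1 and 5.17% of LP4, and cells with 5 or more made up 2.49%, 5.09% and 8.63%. UMIs of several members were uneven among cells. Without thinning, 50% of the *Ccl7* UMIs of LP4 lay in 2.93% of cells and 50% of the *Ccl2* UMIs in 4.28%, against 18.3% of cells for *Ccl4* and 15.1% for *Ccl9*. In Ctrl the same values were 6.46% for *Ccl7*, 6.61% for *Ccl2* and 6.13% for *Ccl4*. These values are not matched for depth, with a median of 5133 UMIs per cell in Ctrl and 11784 in LP4. The Fano factor, the variance over the mean of the thinned counts, which is 1 for counts scattered evenly, was 1.34, 2.23 and 3.72 for *Ccl2* and 2.28, 4.64 and 7.18 for *Ccl4* in the 3 libraries. This factor also rises with the mean count, which differed between the libraries. The 10% of thinned cells with most UMIs held 87.1%, 67.2% and 73.9% of the *Ccl2* UMIs. For *Ccl4* they held 76.2%, 71.6% and 35.0%, so its UMIs were spread over more cells in LP4.

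The cells were clustered without any CC chemokine or receptor gene, and the 6 clusters that held 50 cells or more of each library were compared. Clusters A (led by *Ccnd1* and *Fgf13*), B (*Egr3*, *Nr4a3* and *Apoe*), C (*Fabp4* and *Hal*) and D (*Mgll*, *Cd200* and *Ctsk*) were macrophage-like, E was cycling-like and F, with 219 cells in all, dendritic cell-like. The name of F rests on 5 MHC class II genes (*H2-Eb1*, *H2-Aa*, *H2-Ab1*, *Cd74* and *H2-DMb1*). *Flt3*, *Cd209a* and *Zbtb46* of the same list were not among its leading genes. In F 6 macrophage markers were widely detected, as many as in A, B and C, so the name does not set F apart from macrophages high in these genes. In Ctrl the members differed widely between clusters. *Ccl4* ranged from 5.15 CPM in D to 400.1 CPM in B, *Ccl3* from 12.3 to 439 CPM and *Ccl7* from 15.1 to 498 CPM, again from D to B. In LP1 cluster D was again lowest and B highest for these 3 genes, with 17.1 and 1088 CPM of *Ccl4*. In LP4 the span narrowed. *Ccl4* lay between 1382 CPM in D and 4178 CPM in F, a 3.02-fold span against 77.7-fold in Ctrl, and *Ccl3* between 473 and 1012 CPM, a 2.14-fold span against 35.8-fold.

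Cluster D, the lowest in Ctrl, thus showed the largest ratios, with 8.07 on the log2 scale for *Ccl4* and 5.27 for *Ccl3* in LP4 over Ctrl. Cluster B, the highest in Ctrl, showed the smallest, with 3.20 and 1.06. The Ctrl level is the base of these ratios, so that this order is partly built in, and *Ccl4* of D in Ctrl rested on 26 UMIs. In LP4 cluster D was still the lowest of the 6 in both genes. *Ccl3* in B was at nearly the same level in LP4 (917 CPM) and LP1 (915 CPM), whereas it was higher in LP4 in each of the other 5 clusters. Between Ctrl and LP1, *Ccl2*, *Ccl3*, *Ccl4* and *Ccl7* were higher in LP1 in 6 of 6 clusters, and between Ctrl and LP4 *Ccl2*, *Ccl3*, *Ccl4* and *Ccl5* were higher in LP4 in 6 of 6. *Ccl6* was lower in LP4 than in Ctrl in 6 of 6, with ratios from -0.73 in A to only -0.01 in D. At a resolution of 0.3 it was lower in 4 of 5 clusters, and at 0.8 in 8 of 9.

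The near-equal levels of *Ccl7* in Ctrl and LP4 concealed opposite differences. In cluster B *Ccl7* stood at 498 CPM in Ctrl, 819 CPM in LP1 and 118 CPM in LP4, a log2 ratio of -2.08 for LP4 over Ctrl. In the cycling-like cluster E it stood at 104, 242 and 273 CPM, a ratio of 1.39, and it was also higher in LP4 than in Ctrl in A (202 CPM in LP4), C (99.3 and 123 CPM) and D (15.1 and 39.4 CPM). *Ccl2* in B was lower in LP4 than in LP1 (202 against 336 CPM) and higher in the other 5 clusters. At a finer resolution most of cluster B fell into different subclusters in the different libraries, 1 of which held 87.7% of its Ctrl cells, 87.5% of its LP1 cells and 5.03% of its LP4 cells, while another held 86.0% of its LP4 cells. In the former *Ccl7* stood at 534, 891 and 128 CPM and in the latter at 240, 354 and 106 CPM, so that the lower level in LP4 was present in each. For the other genes the subclusters differed. *Ccl2* was lower in LP4 (199 CPM) than in LP1 (359 CPM) in the former and at the same level in the latter (190 CPM in each). *Ccl3* went from 990 CPM in LP1 to 644 CPM in LP4 in the former and from 550 to 967 CPM in the latter, so that its equal level over the whole of B held opposite differences. The LP4 values of the former rested on 59 cells and the LP1 values of the latter on 47.

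**Figure D4:**
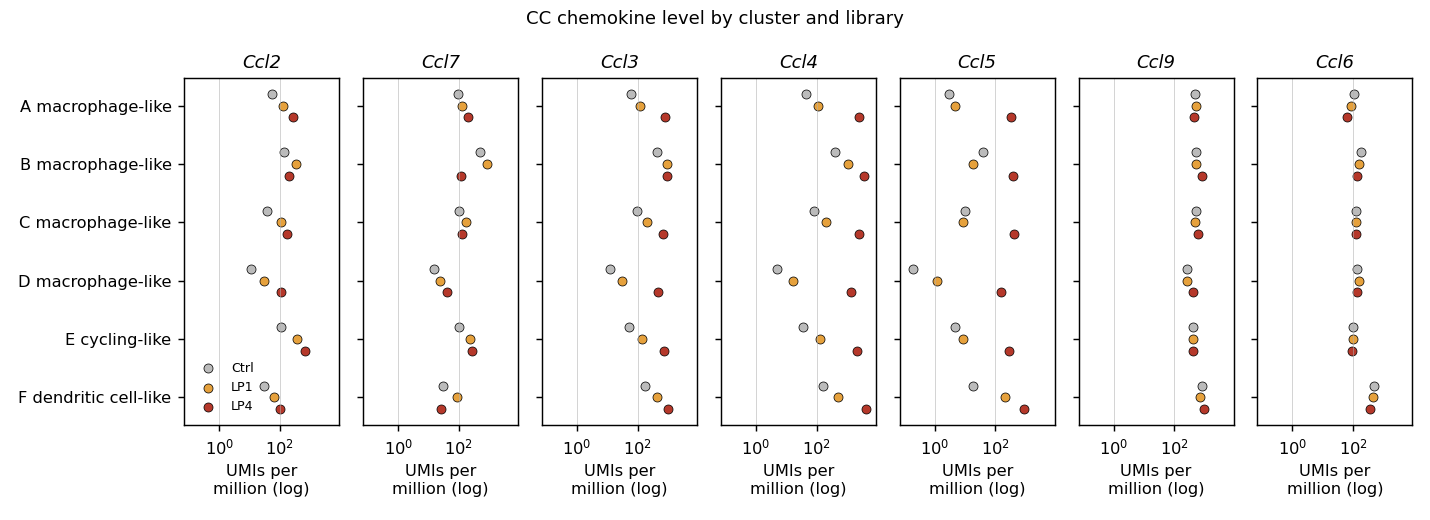
Level of 7 members in clusters A to F, in CPM on a log axis; each point is 1 cluster in 1 library. The clusters lie far apart for *Ccl3*, *Ccl4* and *Ccl7* in Ctrl and LP1 and close together for *Ccl3* and *Ccl4* in LP4, and *Ccl7* in cluster B is lowest in LP4.

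Among the 6 clusters, *Ccl2* was highest in B in Ctrl (141 CPM, with 107 CPM in E), as were *Ccl3* and *Ccl4*. In LP1 and LP4 it had a different leader from *Ccl3* and *Ccl4*. It was then highest in cycling-like cells, with 377 CPM in LP1 (336 CPM in B) and 663 CPM in LP4. The next cluster in LP4, A, had 260.5 CPM. Dendritic cell-like cells had the highest *Ccl6* in every library, with 493, 463 and 356 CPM, and the highest *Ccl9*, with 825, 727 and 932 CPM. They also had the highest *Ccl5* in LP1 (211 CPM, with 118 UMIs from 1 cell) and in LP4 (847 CPM), and most of the *Ccl22* UMIs, at 12.4, 99.9 and 33.8 CPM. The lead in *Ccl9* and *Ccl5* turned with the resolution. At 0.8 a macrophage-like cluster was highest in *Ccl9* in Ctrl (814 against 739 CPM) and LP1 (810 against 707 CPM) and another in *Ccl5* in LP4 (617 against 599 CPM), and at 0.3 cluster B was highest in *Ccl9* in LP4. Among small clusters, the 15 LP4 cells of cluster I (led by *Ddit3*) had *Ccl2* at 2189 CPM from 518 UMIs, of which 1 cell held 230, and 7 stromal-like cells of LP4 held 109 of its 15084 *Ccl2* UMIs. Over the macrophage-like clusters alone the log2 ratio of *Ccl2* to Ctrl was 1.26 at 1 hour and 1.74 at 4 hours.

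Neutrophil-like cells held *Ccl3* without *Ccl4* until LP4. In Ctrl they gave 21 UMIs of *Ccl3* and 0 of *Ccl4*, in LP1 they gave 72 and 0, and in LP4 they gave 579 and 660. A count of 0 allows up to 3 UMIs. In clusters A, B and C of LP1 *Ccl4* was about as abundant as *Ccl3*, with 1088 against 915 CPM in B. In LP4 the neutrophil-like cells reached 2754 CPM of *Ccl4* and 2416 CPM of *Ccl3*, the latter above the level of every cluster from A to F. They held 1 UMI of *Ccl2*, 0 of *Ccl7* and 2 of *Ccl5* in LP4.

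Across cells thinned to 5000 UMIs, of which Ctrl had 3172, LP1 had 4736 and LP4 had 4451, the highest correlation in each library was that of the neighbours *Ccl3* and *Ccl4*. The 2899 cells of Ctrl, 329 of LP1 and 219 of LP4 with fewer UMIs were left out. The Ctrl values therefore describe its deeper cells and are not fully comparable with those of LP1 and LP4. *Ccl3* and *Ccl4* had a Pearson r of 0.56, 0.73 and 0.65 in Ctrl, LP1 and LP4, and *Ccl2* and *Ccl7* one of 0.37, 0.61 and 0.64. Between the pairs, *Ccl3* and *Ccl7* had 0.42 and 0.48 in Ctrl and LP1 and 0.15 in LP4. *Ccl5* had at most 0.17 with any other member in LP4. These values describe cells of 1 library each, which share their free RNA and include all cell types. In thinned cells of Ctrl, *Ccl4* was found in 47.7% of cells with *Ccl3* and 9.45% of cells without it, and in LP4 in 93.8% and 67.8%. *Ccl7* was found in 34.6% of LP4 cells with *Ccl2* and 5.79% of those without. *Ccl5* was found in 25.9% of LP4 cells with *Ccl3* and in 24.1% of those without, so that a cell's *Ccl3* said little of its *Ccl5*.

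**Figure D5:**
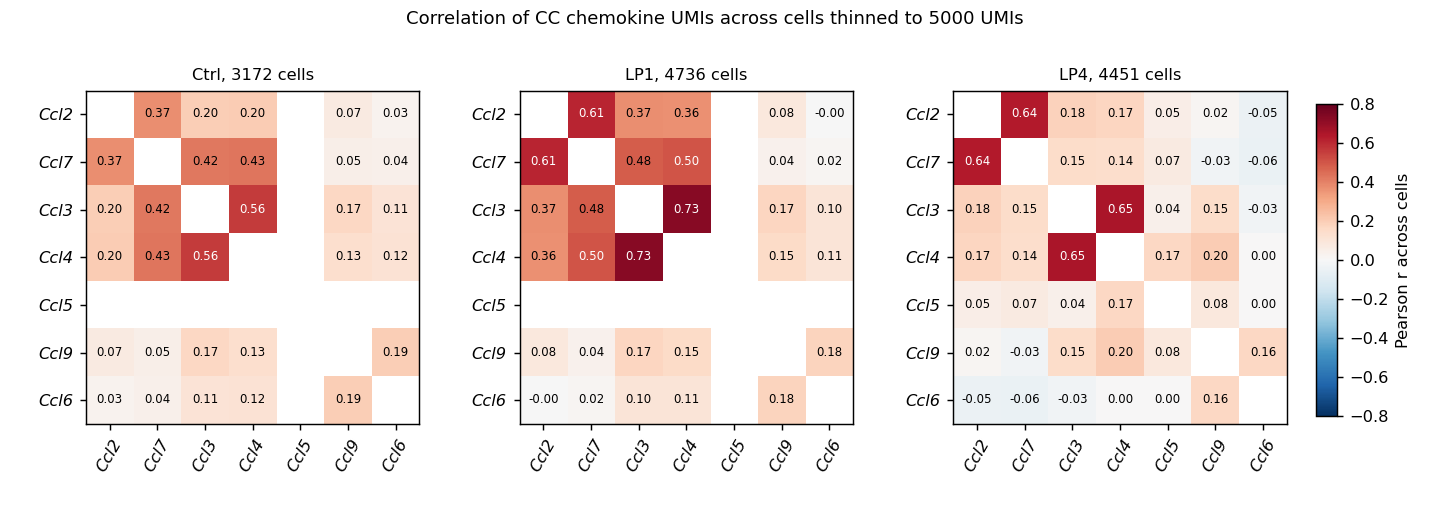
Pearson r between members across the cells of each library thinned to 5000 UMIs; white squares were not computed, which for *Ccl5* was because it was under 50 CPM in Ctrl and LP1. *Ccl3* with *Ccl4* is highest in every library, *Ccl2* with *Ccl7* is next in LP1 and LP4 (0.61 and 0.64) but not in Ctrl (0.37), and the values linking the pairs are lower in LP4 than in LP1.

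Over 3119 genes with at least 50 CPM in LP4, the genes outside the family most like each member across LP4 cells differed between members. For *Ccl4* they were *Wfdc17* (r of 0.37), *Cxcl10*, an interferon-induced chemokine of the CXC family (0.28), and *Rsad2*, an antiviral interferon target (0.26). For *Ccl3* they were *Wfdc17* (0.30) and the stress and inflammation regulators *Atf3* (0.27) and *Nfkbiz* (0.19). For *Ccl5* they were *AW112010* (0.25) and the interferon-induced genes *Oasl1* (0.23) and *Gbp5* (0.23). *Ccl9* was most like *Il1rn*, the interleukin receptor antagonist (0.21), *Ccl6* like the lysozyme gene *Lyz2* (0.19) and *Ccl7* like *Dab2* (0.16). *Ccl2* was most like the cell cycle gene *Top2a* (0.17) over all cells and like *Dab2* (0.14) over macrophage-like cells alone. Values near 0.2 in counts this sparse are no finding, and they are given for order only.

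Of the 14 other CC chemokine symbols in the table, 4 had no UMI, and *Ccl24*, an eosinophil attractant, was the one above 20 CPM, with 21.7, 19.7 and 25.8 CPM. *Ccl17*, which shares the receptor CCR4 with *Ccl22*, gave 0, 4 and 78 UMIs. Only 2 of the 14 had 10 CPM, *Ccl17* not among them, and 0 of these passed 2-fold in any pair. Of all genes, 0.697% were 2-fold higher and 0.465% lower in LP1 than in Ctrl. For LP4 over Ctrl these shares were 10.6% and 9.91%, and for LP4 over LP1 8.75% and 7.55%. Receptor genes were read in the same way. *Ccr1*, the receptor for *Ccl3*, *Ccl6* and *Ccl9* products, stood at 67.4, 99.9 and 454 CPM, a log2 ratio of 2.75 (2.69 to 2.81) for LP4 over Ctrl. *Ccr2*, the receptor for *Ccl2*, *Ccl7* and *Ccl12* products, stood at 19.5, 26.5 and 13.2 CPM, higher in LP1 than in Ctrl and lower in LP4 than in LP1 by -1.01 (-1.14 to -0.88). *Ccrl2*, a receptor that does not signal through G proteins, stood at 147, 212 and 204 CPM. Of the 14 receptor symbols, 5 had 10 CPM in LP4 or Ctrl, of which 1, *Ccr1*, was 2-fold higher in LP4 (beside 10.6% of all genes) and 0 were 2-fold lower (beside 9.91%).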

How the data were processed

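RNA of single BMDMs was measured in 1 library each of Ctrl, LP1 and LP4 (10x 3′ assay). The authors aligned the reads to the mouse transcriptome (mm10) and counted UMIs with Cell Ranger (version 7.1.0 in the submitters' processing notes). The deposited values are raw UMI counts per gene and cell barcode, without normalization. The study's limits on barcodes were applied: UMIs and genes each above 500, and a mitochondrial share below 5%. They left 15806 cells, more than the study gives. This was 99.2%, 98.9% and 92.7% of the deposited barcodes. No doublet caller was run. Doublets were addressed by leaving out the 5% of cells with most UMIs.

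UMIs were summed over the kept cells of a library and divided by its total. CPM has exact Poisson intervals, log2 ratios have exact conditional binomial intervals and shares have exact binomial (Clopper-Pearson) intervals, all at 95%. With 1 library per condition no p-value was computed. Ratio and thinning steps were tested on simulated data. Depth differed between libraries, so cells were thinned for shares (2000 UMIs) and correlations (5000 UMIs, log(1 + count)). For clusters, CC chemokine and receptor genes and genes over 1.5-fold apart between libraries were left out, and 2000 variable genes, 30 principal components, 20 neighbours and Leiden clustering (leidenalg 0.10.2) at a resolution of 0.5 were used. Before the components were taken, the mean of each gene in a library was subtracted from its cells. Clusters were thus matched across libraries after shifts of a whole library had been removed. Clusters were named from marker lists and are rebuilt, not the study's. TMM factors came from edgeR 4.0.16.

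The 10 members are all named. Other family and receptor genes are named from 20 CPM, except 1 that is not reported here, and like genes are the 3 with the highest r. *Ccl17*, under that limit, was named after its values were seen, as were the cells with most UMIs. The members, lists and limits were chosen with earlier results of these data known. Promoter windows came from RefSeq and were searched for fixed consensus letters of each motif. The 3′ untranslated regions came from the longest coding transcript of GENCODE vM21. Genes with the same symbol were summed, and reads of near-identical copies (*Ccl21*, *Ccl27*) may be split between them. Alternatives were every deposited barcode, a mitochondrial limit of 10%, other scalings, the mean of cell shares, macrophage-like cells alone, fewer cells, other thinning depths and cluster resolutions.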

Additional observations from a re-analysis of the deposited data

Results flagged for a closer look

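The barcodes left out by the limits on UMIs, genes and mitochondrial share entered no main comparison. They entered only the alternatives with every deposited barcode or a mitochondrial limit of 10%. The left-out barcodes of LP1 and LP4 held CC chemokine UMIs above the level of those of Ctrl. The kept cells had the same order, with 1086, 1581 and 4674 CPM. The 10 genes summed to 754 CPM in the 52 barcodes left out of Ctrl (interval 552 to 1006), 1908 CPM in the 54 left out of LP1 (1755 to 2072) and 4032 CPM in the 369 left out of LP4 (3965 to 4101). In the left-out LP4 barcodes *Ccl4* stood at 1931 CPM, *Ccl5* at 361 CPM and *Ccl7* at 203 CPM. The median depths of the left-out barcodes were 784 (Ctrl), 5097 (LP1) and 8602 UMIs (LP4). The mitochondrial limit alone took out 18 of those of Ctrl, 43 of LP1 and 273 of LP4, so the 3 sets were unlike. The part of depth in the difference was not tested.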

How the results depend on the processing

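The counts of members past 2-fold stayed within 1.5 times of their values under all 10 alternatives, though for LP4 over Ctrl 6 higher and 0 lower became 5 higher and 1 lower (*Ccl22*) without the top cells. The summed log2 ratio for LP1 over Ctrl, 0.54, was 0.61 with TMM, 0.62 with the median of ratios, 0.56 as a mean of cell shares and 0.52 in macrophage-like clusters alone. For LP4 over Ctrl, 2.11, it was 2.27, 2.31, 1.99 and 2.06 in the same order, 2.08 without mitochondrial and ribosomal protein genes and 2.08 without the 5% of cells with most UMIs. The direction turned for *Ccl22* in LP4 over Ctrl, from 1.02 to -0.070 in macrophage-like clusters alone and to -1.01 without its top cell in each library, an alternative chosen after seeing the data that leaves 7, 18 and 6 UMIs in the 3 libraries. *Ccl3* in LP1 fell under 2-fold in 4 of 10 alternatives (0.98 at lowest), and *Ccl7* in LP4 over LP1 passed 2-fold as a mean of cell shares (-1.09). The cause of the other moves was not tested.

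No paired analysis was possible because each condition has 1 library. Intervals cover counting error and not the spread between cultures. Depth limits *Ccl8*, *Ccl12* and *Ccl22*, for which 141, 10 and 10 UMIs were the smallest library counts. Cluster values depend on rebuilt clusters, and at a resolution of 0.3 dendritic cell-like and stromal-like cells shared 1 cluster.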
